A study of Schizosaccharomyces pombe with 12 samples.

Results

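The genes described here are 9 fission yeast genes that serve nitrogen supply: the GATA-type transcription factor gene gaf1, the regulator gene isp7, the amino acid permease genes isp5, per1, cat1 and aat1, the peptide transporter gene isp4, the vacuolar transporter gene fnx1 and the protease gene isp6. They were taken by gene symbol from the deposited tables, and all 9 were found among 5160 listed genes. RNA sequencing measured them in 12 libraries of whole Schizosaccharomyces pombe cells, 3 each from the H2B triple mutants A, Q and R and from the wild type (WT). Each mutant carries histone H2B with lysines 5, 10 and 15 exchanged together, for alanine in A, glutamine in Q and arginine in R. For A replicate 2 the genotype label names position 16 where the others name 15. Not given in the sources used here: the strain background, the mating type, the culture medium with its nitrogen source, and the number of clones behind a mutant. Nothing says that replicates were separate cultures, so the p-values measure the spread between these libraries, which may be technical. The study asked how acetylation of these lysines bears on DNA break repair, and its comparison is of each mutant with WT.

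Fission yeast cells that run out of a good nitrogen source stop growing, and then mate or enter a resting state. The kinase complex TORC1 is active while nitrogen is plentiful, and when its activity drops, Gaf1 moves into the nucleus and binds target genes. Permeases of the plasma membrane bring amino acids into the cell, vacuolar transporters store them, and vacuolar proteases release them again from protein. The isp genes take their name from transcripts that appear as starved cells enter sexual development. Lysine acetylation removes the positive charge of the side chain; arginine keeps that charge, glutamine is a common stand-in for the acetylated form, and alanine is neither charged nor a mimic.

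Total counts per library lay between 15329416 and 20050394. Levels are given as CPM, the count scaled to a common library total, and levels of different genes are compared as FPKM, which is also scaled for gene length. All 9 genes passed the filter on low counts, and every library held at least 112 counts for each of them. Fold changes and tests come from 1 edgeR quasi-likelihood fit over all 12 libraries, and a gene was called where its p-value, adjusted over the 5024 genes tested, was below 0.05. No member has a near-identical copy in the reference genome. 8 of the 9, all but isp5, overlap an annotated gene that is not among the listed ones, and since the use of strand in counting is not stated, reads of such a pair cannot be told apart.

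In Q, 6 of the 9 genes were called: isp5 rose, while gaf1, cat1, aat1, isp4 and fnx1 fell. Of all genes tested in Q against WT 34.5% were called, 18.6% as higher and 15.8% as lower. In R, 4 of the 9 were called, isp5 and isp7 as higher and aat1 and fnx1 as lower, where the shares over all genes were 24.2% in either direction, 13.2% higher and 11.1% lower. In A, edgeR called 0 of the 9, where 4.16% of all genes were called, 2.73% as higher and 1.43% as lower. In that comparison 1 member, fnx1, had an unadjusted p below 0.05, and DESeq2 called that 1, beside 10.7% of all genes. The shares over all genes moved with single libraries. In Q the share was 21.2% without Q replicate 2, 19.2% without WT replicate 1, 21.5% without WT replicate 2 and 16.7% without WT replicate 3, where 4 to 5 members were called. The count in Q was also 4 without Q replicate 1 (33.4%) or Q replicate 3 (31.8%), and 7 without R replicate 2 (40.2%). In R the count of members was 2 without R replicate 1 (22.0% of all genes), R replicate 2 (9.98%), R replicate 3 (21.9%) or WT replicate 3 (6.89%). It was 1 without WT replicate 1 (6.46%) or WT replicate 2 (12.5%). In A the count was 1 without Q replicate 1 (4.45%) or R replicate 2 (12.5%), and without any 1 A or WT library it was 0, with shares between 0.0397% and 1.93%. The median log2 fold change of the 9 genes was -0.24 in A, -0.52 in Q and 0.12 in R, beside 0.007, 0.017 and -0.005 over all genes tested. The 3 comparisons share the WT libraries. In whole-culture RNA, a large change in some cells and a smaller one in every cell cannot be told apart.

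**Figure D1:**
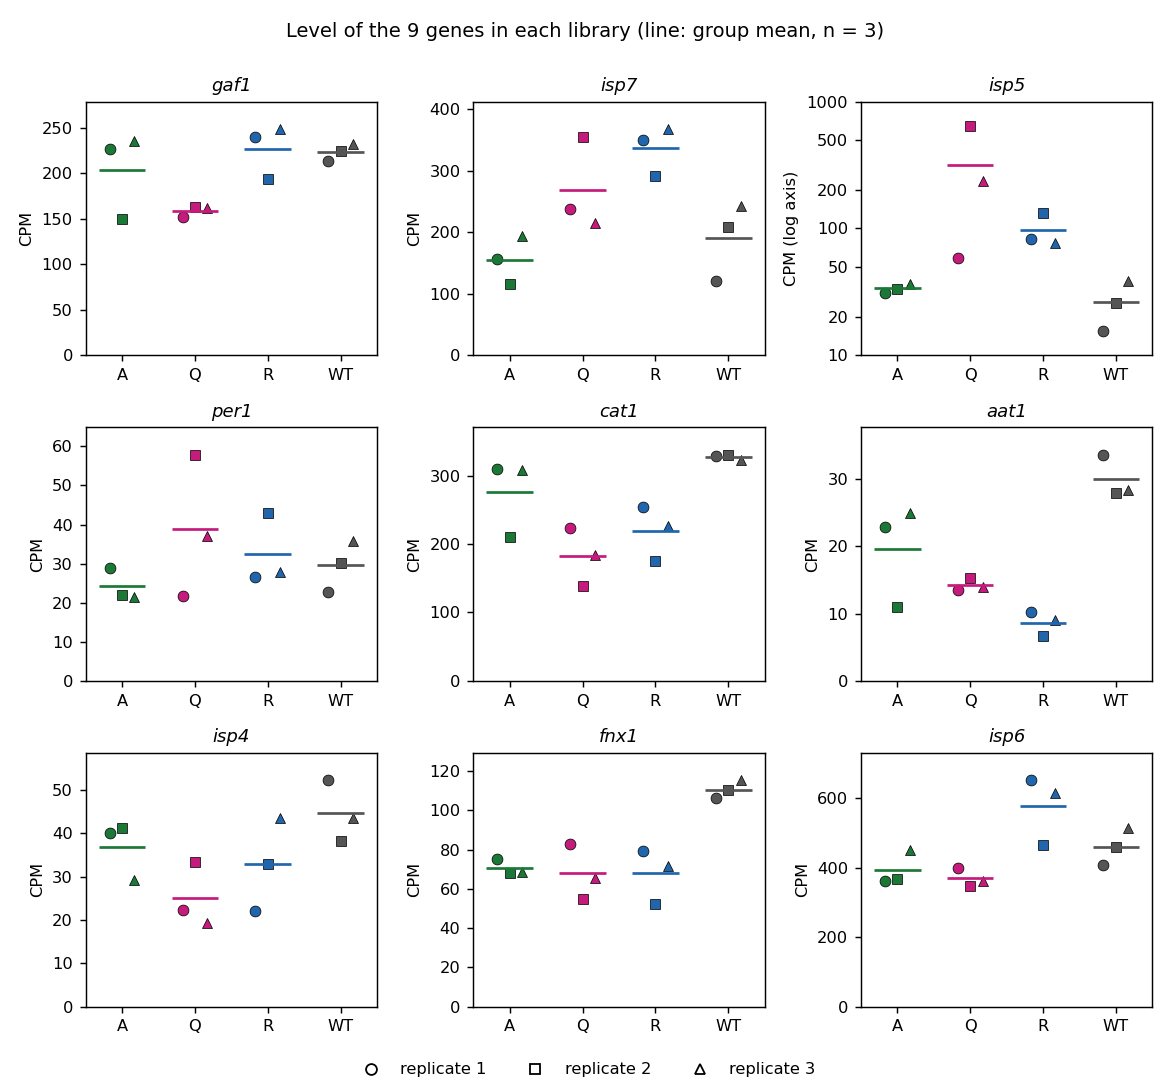
Level of each of the 9 genes in each of the 12 libraries, in CPM, with 1 panel per gene and a line at the mean of each group (n = 3). Symbols mark replicate numbers, and the axis of isp5 is logarithmic. For fnx1, aat1 and cat1 every mutant library lies below every WT library, and for isp5 every Q and R library lies above every WT library.

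Per length, the protease gene isp6 had the highest group mean of the 9 genes in every group, at 181 ± 22.9 FPKM in A, 170.4 ± 12.2 FPKM in Q, 267 ± 45.7 FPKM in R and 213 ± 24.8 FPKM in WT (SD, n = 3 each). The order of the others differed between groups. The permease gene isp5 was the lowest of the 9 in WT, at 8.08 ± 3.47 FPKM, and the second highest by group mean in Q, at 95.8 ± 92 FPKM. Its 3 Q values, at 17.7, 197 and 72.6 FPKM, spread so widely that its place in Q cannot be fixed: in replicate 2 it was above isp6, at 160.3 FPKM, while the mean of gaf1 was 37.3 ± 1.48 FPKM and that of fnx1 34 ± 7.07 FPKM. In R, isp5 averaged 29.7 ± 9.51 FPKM and overlapped fnx1 within its spread, at 34 ± 6.95 FPKM. In WT the order below isp6 was cat1 at 123 ± 1.65, isp7 at 61.1 ± 20.1, fnx1 at 55.4 ± 2.3, gaf1 at 52.5 ± 2.13, isp4 at 14.1 ± 2.24, aat1 at 12.1 ± 1.29 and per1 at 9.98 ± 2.21 FPKM. Among these, isp7, fnx1 and gaf1 lay within 1 SD of isp7, and the 4 lowest genes formed a run in which neighbours overlap by their SDs.

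The first pair of genes are regulators. Gaf1 is a GATA-type factor that acts when TORC1 activity is low. In Q, gaf1 (SPCC1902.01, chromosome III) was at 151, 163 and 162 CPM, against 214, 224 and 232 CPM in WT. All 3 Q libraries lay below all 3 WT libraries, and the 3 Q values spanned a narrow range. The transcript fell in Q, with a log2 fold change of -0.52 ± 0.16 (SE) and an adjusted p of 0.0299. The call is a weak one, since it was lost when any 1 of the 6 Q and WT libraries was left out, with adjusted p between 0.0516 and 0.093. In A gaf1 was at 226, 149.9 and 236 CPM, so that replicate 2 alone was low, and the change was not called (log2 -0.10, adjusted p = 0.753). In R it was at 239, 193 and 249 CPM, overlapping WT, with a log2 fold change of 0.12 (adjusted p = 0.595).

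Isp7 is a 2-oxoglutarate-dependent oxygenase-like protein that acts on amino acid permease genes and on TORC1. In R, isp7 (SPAC25B8.13c, chromosome I) was at 349.7, 292 and 368 CPM, against 121, 208 and 242 CPM in WT. The groups did not overlap, and WT replicate 1 was well below the other WT libraries. The transcript rose 1.89-fold in R (log2 0.92 ± 0.28, adjusted p = 0.0351). That call was lost without R replicate 1, 2 or 3 or without WT replicate 1 or 2, at adjusted p between 0.0551 and 0.121. In Q isp7 was at 238, 354 and 215 CPM and in A at 157, 115 and 194 CPM, both overlapping WT. Neither was called, with log2 fold changes of 0.49 in Q (adjusted p = 0.187) and -0.26 in A (adjusted p = 0.608).

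The 4 permease genes did not move together. Isp5 is a permease of the plasma membrane whose transcript is known to increase on nitrogen starvation. In Q, isp5 (SPAC1039.09, chromosome I) was at 57.9, 646 and 238 CPM, against 15.5, 25.7 and 38.2 CPM in WT. Each Q library was above each WT library, but replicate 2 of Q was far above replicate 1. The fitted rise was 12-fold (log2 3.58 ± 0.68, adjusted p = 0.0051), and it was 2.42 on the log2 scale without Q replicate 2. The Q call held in all 12 fits that each left out 1 library, with an adjusted p of at most 0.0258. In R isp5 was at 81.9, 133 and 76.7 CPM, again with every library above WT. It rose 3.9-fold in R (log2 1.96 ± 0.64, adjusted p = 0.0435), a call that was lost in 10 of the 12 fits, at adjusted p up to 0.147, and held only without Q replicate 1 or 2. In A the values were 30.9, 33.4 and 36.5 CPM, within the WT range, with a log2 fold change of 0.39 (adjusted p = 0.744) and an interval of 2 SE from -0.87 to 1.64.

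Per1 is another plasma membrane amino acid permease. In none of the mutants was per1 (SPAP7G5.06, chromosome I) called by edgeR, and its levels overlapped WT in each. It was at 29, 22.1 and 21.6 CPM in A, at 21.8, 57.9 and 37.1 CPM in Q and at 26.5, 42.9 and 27.8 CPM in R, against 22.7, 30.1 and 35.8 CPM in WT. Replicate 2 was the highest of its group in Q and in R. The log2 fold change was -0.26 in A, 0.39 in Q and 0.22 in R, and the adjusted p-values were 0.653, 0.35 and 0.632. The sign turned in Q (-0.07) and in R (-0.0041) without replicate 2 of that mutant. The intervals of 2 SE reached from -0.89 to 0.38 in A, from -0.24 to 1.02 in Q and from -0.41 to 0.85 in R.

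Cat1 carries the basic amino acids arginine and lysine across the plasma membrane. In Q, cat1 (SPAC869.11, chromosome I) was at 223, 139 and 184 CPM, against 328, 331 and 322 CPM in WT. The WT libraries were close together and every Q library was below them. The transcript fell in Q (log2 -0.87 ± 0.19, adjusted p = 0.00757), and the call held in all 12 fits that left out 1 library. The R libraries, at 254, 175 and 226 CPM, also lay below every WT library, yet the change was not called (log2 -0.48 ± 0.19, adjusted p = 0.082). The A libraries were at 309, 210.3 and 308 CPM, below WT by little except in replicate 2, and the log2 fold change was -0.21 (adjusted p = 0.513). Of all members cat1 had the smallest relative spread in WT, at 327 ± 4.39 CPM.

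Aat1 is a broad amino acid permease that is held at the Golgi in growing cells and reaches the plasma membrane on starvation. In R, aat1 (SPBC359.03c, chromosome II) was at 10.23, 6.61 and 9.06 CPM, against 33.6, 27.8 and 28.4 CPM in WT. Q was at 13.5, 15.3 and 14 CPM, and A at 22.9, 11 and 24.9 CPM. Every mutant library lay below every WT library, and every R library lay below every Q and A library. The transcript fell by 1.69 ± 0.28 on the log2 scale in R (adjusted p = 0.00316) and by 1.09 ± 0.27 in Q (adjusted p = 0.0121). Both calls held in all 12 fits that left out 1 library. In A the log2 fold change was -0.58 ± 0.27 and not called (adjusted p = 0.207). The longest stretch of other sequence like aat1 was in its paralogue SPBC359.01, 84.4% identical over 61.8% of aat1, so the reads of the pair could be mixed in part. SPBC359.01 itself fell in R (log2 -0.85 ± 0.23, adjusted p = 0.0229; not called without R replicate 2 or 3 or WT replicate 3) and had a log2 fold change of -0.06 in Q (adjusted p = 0.867).

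**Figure D2:**
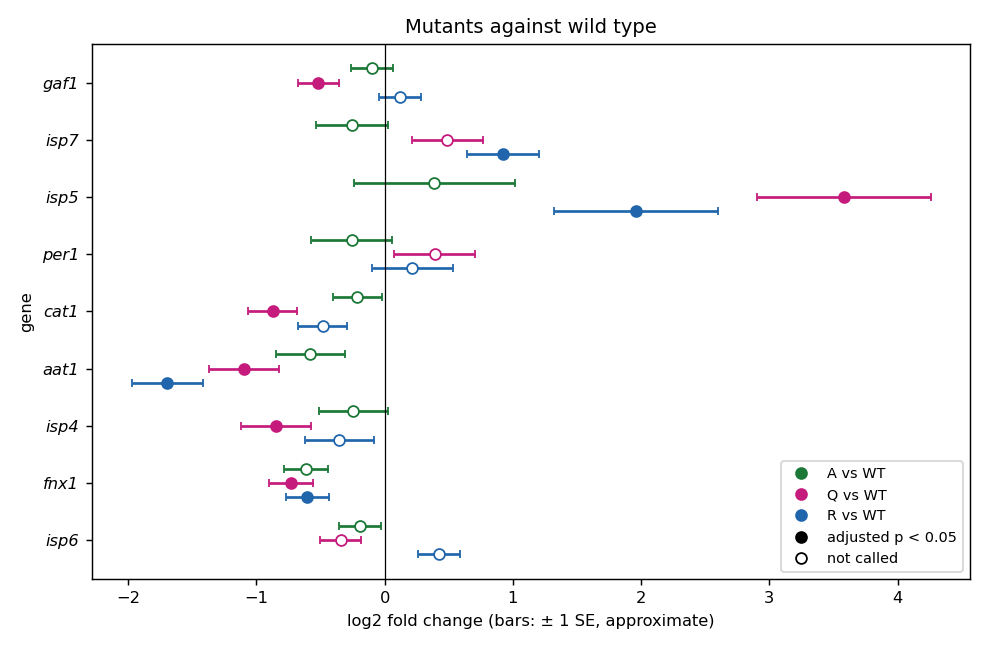
Log2 fold change of each of the 9 genes in A, Q and R against WT, from the edgeR fit, with bars of 1 approximate SE and filled points where the adjusted p was below 0.05. The isp5 point lies at 3.58 in Q and 1.96 in R, aat1 at -1.09 in Q and -1.69 in R, and no point of A is filled.

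Isp4 is an oligopeptide transporter, which brings small peptides into the cell. In Q, isp4 (SPBC29B5.02c, chromosome II) was at 22.3, 33.5 and 19.3 CPM, against 52.2, 38.1 and 43.5 CPM in WT. The groups did not overlap, although Q replicate 2 came close to WT replicate 2. The transcript fell in Q (log2 -0.85 ± 0.27, adjusted p = 0.0315), and the call was lost without Q replicate 1 or 3 or WT replicate 1 or 3, at adjusted p between 0.0744 and 0.111. R was at 22.1, 32.8 and 43.5 CPM and A at 40.1, 41.3 and 29.3 CPM. Both overlapped WT, with log2 fold changes of -0.35 in R (adjusted p = 0.344) and -0.24 in A (adjusted p = 0.615).

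Fnx1 moves amino acids into the vacuole, and its overexpression is known to bring on a state like that of nitrogen-starved cells. Its gene fnx1 (SPBC12C2.13c, chromosome II) was at 83, 55.1 and 65.5 CPM in Q and at 79.5, 52.6 and 71.7 CPM in R, against 106, 110.2 and 115 CPM in WT. The A libraries were at 75.3, 68.1 and 68.7 CPM. All 9 mutant libraries were below all 3 WT libraries, and the means of the mutants lay close together, at 70.7 ± 3.97, 67.9 ± 14.1 and 67.9 ± 13.9 CPM in A, Q and R. The transcript fell by 0.73 ± 0.17 on the log2 scale in Q (adjusted p = 0.00907) and by 0.60 ± 0.17 in R (adjusted p = 0.0263). The Q call held in all 12 fits, while the R call was lost without R replicate 2 or any 1 WT library, at adjusted p between 0.0604 and 0.0898. In A the log2 fold change was of the same size, -0.61 ± 0.17, but the adjusted p was 0.0621, and it was called without Q replicate 1 or without R replicate 2. In the authors' deposited table, fnx1 in A has an FDR of 2.85e-08.

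Isp6 is a vacuolar serine protease that takes part in autophagy under nitrogen starvation. In R, isp6 (SPAC4A8.04, chromosome I) was at 652, 465 and 616 CPM, in Q at 399, 347 and 362 CPM and in A at 361, 368 and 450.3 CPM, against 407, 461 and 514 CPM in WT. The Q libraries were all below WT, the highest of Q being near the lowest of WT, while R and A overlapped it. None of these changes was called, with log2 fold changes of 0.43 ± 0.16 in R (adjusted p = 0.0735), -0.34 ± 0.16 in Q (adjusted p = 0.118) and -0.19 ± 0.16 in A (adjusted p = 0.492). Leaving out R replicate 2 brought both the R rise (adjusted p = 0.033) and the Q fall (adjusted p = 0.046) past the threshold.

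The authors' own test called 1 of the 9 genes in A, 7 in Q and 5 in R at an FDR below 0.05, beside 24.5%, 40.3% and 37.8% of all listed genes. In the authors' deposited table the calls beyond those of the edgeR fit were fnx1 in A, isp6 in Q as lower and cat1 in R as lower, and every gene called by edgeR was also below 0.05 there, in the same direction.

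Replicate 2 was the lowest or highest library of a mutant for several of these genes, though not always on the same side. It was the lowest library of A, of Q and of R for cat1 and for fnx1, by little for fnx1 in A (68.1 against 68.7 CPM in replicate 3). It was the highest of Q and of R for isp5 and per1. For gaf1, aat1 and isp7 it was the lowest of A and of R but the highest of Q. For isp4 it was the highest of A and of Q, and for isp6 the lowest of Q and of R. The labels tie equal replicate numbers to no batch, and A replicate 2 is the library whose label names position 16. With replicate 2 of A, Q and R left out together, the 6 genes called in Q were the same 6, where 40.6% of all genes were called, and isp6 joined the 4 called in R (adjusted p = 0.0208; 24.7% of all genes). In that fit fnx1 was called in A (log2 -0.61, adjusted p = 0.016; 12.9% of all genes). What lies behind the values of replicate 2 was not tested.

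**Figure D3:**
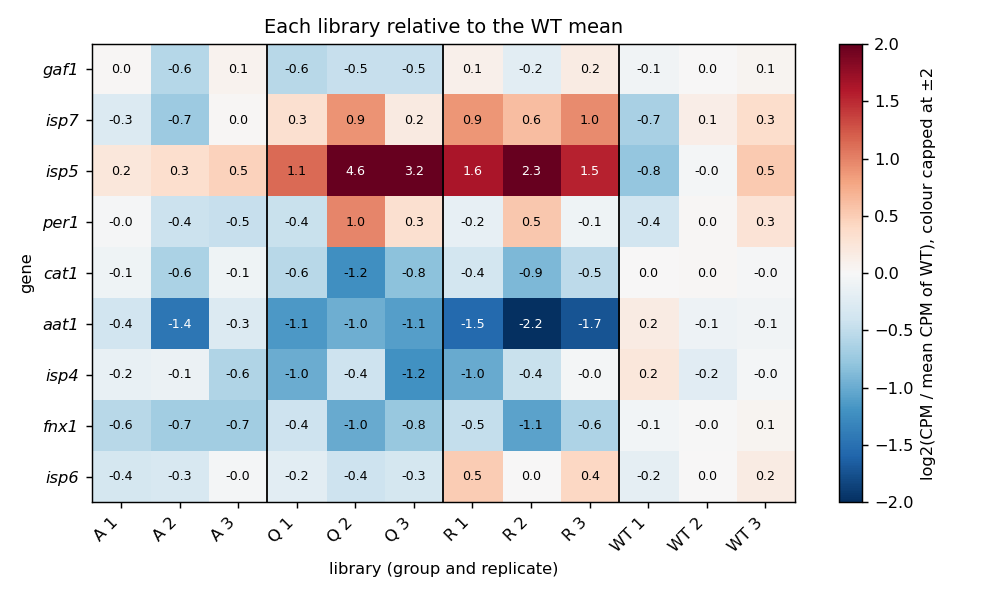
Each library relative to the WT mean, as log2 of CPM over the mean CPM of WT, with genes in rows, libraries in columns and the colour capped at 2 in size. For isp5 the value printed in Q replicate 2 is the highest of the 12. Replicate 2 has the lowest printed value of its group for cat1 in A, Q and R and for fnx1 in Q and R, while for fnx1 in A replicates 2 and 3 print alike.

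The mutants were also set against each other, since a call in 1 mutant and not in another does not show that they differ. Between Q and R, isp6 was the 1 member called, where 3.64% of all genes were called and 1.57% as lower. Its values of 399, 347 and 362 CPM in Q lay below the 652, 465 and 616 CPM of R (log2 -0.77 ± 0.16, adjusted p = 0.0232). The call was lost without any 1 Q library or without R replicate 1 or 3, at adjusted p between 0.052 and 0.108. The count of members called was 0 without Q replicate 2 (4.14% of all genes), Q replicate 3 (1.81%), R replicate 1 (1.21%) or R replicate 3 (1.01%). It was 2 without A replicate 2 (5.03%), A replicate 3 (3.78%) or R replicate 2 (9.18%). Q and R libraries of the same number deviate together from their group means, and with the replicate number as a block gaf1 was called as well (log2 -0.62, adjusted p = 0.0421; 4.12% of all genes). Without the block gaf1 was lower in every Q library than in any R library at an adjusted p of 0.0537. For isp5 the log2 difference between Q and R was 1.62 ± 0.62 with an interval of 2 SE from 0.37 to 2.86, not called at an adjusted p of 0.188, and without Q replicate 2 the difference was 0.45. For aat1 the Q libraries were all above the R libraries (log2 0.60 ± 0.28, adjusted p = 0.254).

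Between R and A, 0 of the 9 genes were called by edgeR where 2.47% of all genes were. Unadjusted, 4 had a p below 0.05, and DESeq2 called 3, beside 8.66% of all genes. The count was 3 without Q replicate 1 (4.91% of all genes) and 2 without Q replicate 2 (6.62%). It was 1 without A replicate 2 (3.42%), Q replicate 3 (3.0%), R replicate 2 (1.63%) or WT replicate 1 (1.75%). The 4 with an unadjusted p below 0.05 in edgeR, none of them called, were isp7 (log2 1.18 ± 0.28, adjusted p = 0.0505), isp6 (log2 0.62 ± 0.16, adjusted p = 0.0647), aat1 (log2 -1.11 ± 0.28, adjusted p = 0.0543) and isp5 (log2 1.58 ± 0.63, adjusted p = 0.168). R and A libraries of the same number also deviate together, and with the block the first 3 of these were called, isp7 at an adjusted p of 0.0297, isp6 at 0.0396 and aat1 at 0.029, beside 7.25% of all genes.

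Between Q and A, edgeR called 0 of the 9, and 0.0398% of all genes. Here 5 members had an unadjusted p below 0.05, and DESeq2 called 1, isp5, beside 2.29% of all genes. The count was 2 without A replicate 2 (3.64% of all genes) or without Q replicate 1 (3.66%). The isp5 values of 57.9, 646 and 238 CPM in Q were above the 30.9, 33.4 and 36.5 CPM of A, with a log2 difference of 3.19 ± 0.66 and an adjusted p of 0.159. The difference was 2.03 without Q replicate 2. For isp7 the Q libraries were also all above the A libraries (log2 0.75 ± 0.28, adjusted p = 0.233). Lower in Q, also with an unadjusted p below 0.05 but overlapping A, were cat1 (log2 -0.66 ± 0.19, adjusted p = 0.197), gaf1 (log2 -0.42 ± 0.16, adjusted p = 0.237) and isp4 (log2 -0.60 ± 0.27, adjusted p = 0.261). Without A replicate 2, cat1 and gaf1 were called, and without Q replicate 1, isp5 and cat1. For fnx1 no difference between mutants was called, and the intervals of 2 SE were from -0.47 to 0.21 between Q and R, from -0.46 to 0.22 between Q and A and from -0.33 to 0.35 between R and A.

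**Figure D4:**
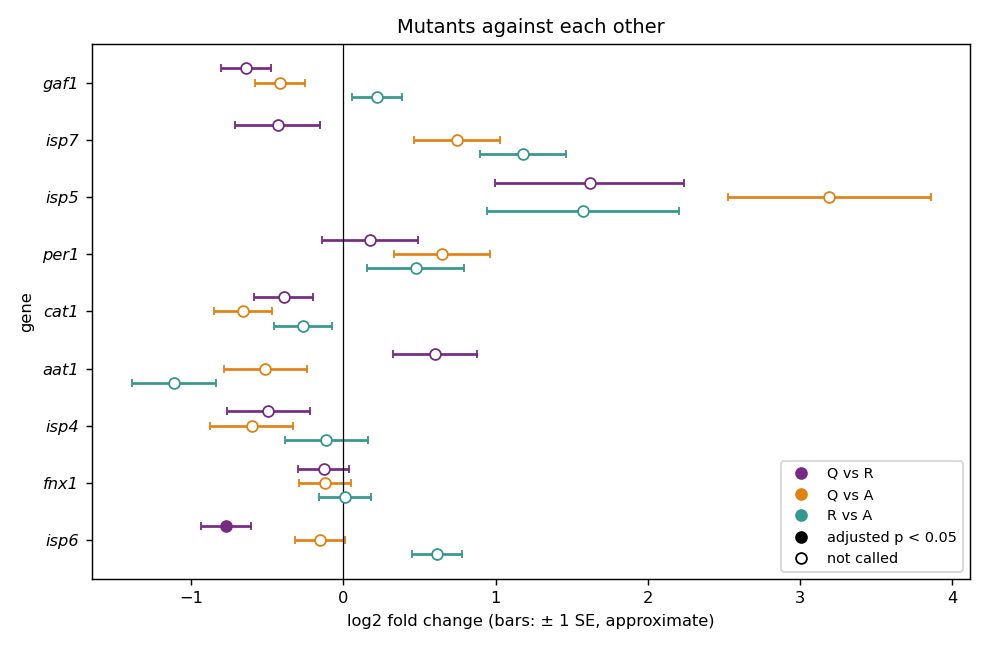
Log2 fold change of each of the 9 genes between the mutants, Q against R, Q against A and R against A, from the same edgeR fit, with bars of 1 approximate SE and filled points where the adjusted p was below 0.05. The 1 filled point is isp6 between Q and R, at -0.77, and the widest bars belong to isp5.

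The other genes of nitrogen supply were followed in 6 lists with 102 names, of which 78 matched a listed gene and 74 genes were tested beside the 9. Of 18 other transporter genes edgeR called 0 in A, 1 higher and 5 lower in Q, and 2 higher and 2 lower in R. Of all genes tested 4.16% were called in A, 34.5% in Q (18.6% higher, 15.8% lower) and 24.2% in R (13.2% higher, 11.1% lower). The median log2 fold changes of the 18 genes were -0.20, -0.05 and -0.17. The transporter gene SPAC11D3.08c, at 173 ± 25.8 CPM in Q and 303 ± 5.89 CPM in WT, fell in Q (log2 -0.83 ± 0.19, adjusted p = 0.0078). So did pgt1, a glutathione transporter gene, at 88.4 ± 3.92 CPM in Q and 132 ± 6.18 CPM in WT (adjusted p = 0.0126), and avt5, a vacuolar amino acid transporter gene, at 60.7 ± 6.68 CPM in Q and 105 ± 3.68 CPM in WT (adjusted p = 0.0144). The avt5 call was lost without Q replicate 2 (adjusted p = 0.0513). In R the peptide transporter gene ptr2 was at 4.2 ± 0.412 CPM, against 10.4 ± 0.417 CPM in WT, and fell by 1.22 ± 0.23 on the log2 scale (adjusted p = 0.00619). It also fell in Q (log2 -0.63, adjusted p = 0.0485), a call held in 4 of 12 fits, those without A replicate 2 or 3, Q replicate 3 or R replicate 2. SPCPB1C11.02 rose in Q (log2 1.48 ± 0.37, adjusted p = 0.0124) and in R (log2 1.64 ± 0.37, adjusted p = 0.0122), with calls lost without Q replicate 2 in Q and without WT replicate 1 or 3 in R. In A the lowest p-values belonged to fnx2, a vacuolar transporter gene related to fnx1 (log2 -0.40, adjusted p = 0.0548), and agp3 (log2 -0.64, adjusted p = 0.0797). Of these named genes, avt5, ptr2 and agp3 each overlap a listed gene on the opposite strand.

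The list of 14 genes of ammonium uptake and nitrogen metabolism had 1 gene higher and 1 lower in A, 1 higher and 5 lower in Q, and 2 higher and 4 lower in R, with medians of -0.31, -0.35 and -0.29. Of all genes tested 4.16% were called in A, 34.5% in Q (15.8% lower) and 24.2% in R (11.1% lower). The arginase gene car1, which opens arginine breakdown, was at 49.1 ± 15.6 CPM in Q and 36.9 ± 15.5 CPM in R, against 119 ± 9.24 CPM in WT. It fell by 1.31 ± 0.28 on the log2 scale in Q (adjusted p = 0.00697) and by 1.59 ± 0.28 in R (adjusted p = 0.00456), and had a log2 fold change of -0.95 in A (adjusted p = 0.0718). Aru1, also an arginase gene, fell in Q (log2 -0.82, adjusted p = 0.0128) and in R (log2 -0.68, adjusted p = 0.0346; not called without R replicate 2 or any 1 WT library). The ammonium transporter gene amt2 fell in Q (log2 -0.48, adjusted p = 0.0133; not called without WT replicate 3) and in R (log2 -0.47, adjusted p = 0.0192; not called without R replicate 2 or WT replicate 1 or 3). No count was recorded in any mutant library for uga1, which turns over GABA and overlaps SPAC14C4.01c on the opposite strand. It was at 6.55 ± 1.04 CPM in WT, so that with a floor of 3 counts per library it was at least 36.0-fold lower in A, at least 33.5-fold lower in Q and at least 36.6-fold lower in R. edgeR did not call uga1 in A when WT replicate 1 or 2 was left out.

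Among 29 genes of TORC1, TORC2 and their regulators edgeR called 6 higher and 1 lower in Q. Over the whole set tested there, 18.6% were higher and 15.8% lower, or 34.5% in either direction. For A and for R it called 0 of the 29, beside 4.16% and 24.2% of the whole set. The medians of this list were 0.11 for A, -0.03 for Q and 0.01 for R. The kinase gene tor2, the catalytic subunit of TORC1, was at 189 ± 21.9 CPM in Q and 124 ± 4.15 CPM in WT and rose (log2 0.58 ± 0.13, adjusted p = 0.00704). The kinase gene ppk18 rose in Q (log2 0.69, adjusted p = 0.00884), as did sin1, a TORC2 subunit gene (log2 0.55, adjusted p = 0.0194), and npr2, of the complex that restrains TORC1 (log2 0.84, adjusted p = 0.0194). The sin1 call was lost without Q replicate 2 or WT replicate 1 or 2, and the npr2 call without Q replicate 3 or WT replicate 2 or 3. The 1 gene of this list that fell in Q was bit61 (log2 -0.375, adjusted p = 0.034; not called without Q replicate 1 or any 1 WT library). Of 6 genes for arrestin-like adaptors and ubiquitin ligases that sort permeases, 2 fell in Q, where 15.8% of all genes were called lower, and 0 were called in A and in R. Those that fell were any1 (log2 -0.41, adjusted p = 0.0129) and any2 (log2 -0.33, adjusted p = 0.0461). The any1 call was lost without WT replicate 3, and the any2 call held in 3 of 12 fits that left out 1 library, those without A replicate 2, R replicate 1 or R replicate 2. Both genes overlap other listed genes, as do ppk18, sin1 and bit61. Of 3 further GATA factor genes edgeR called 0 in each mutant, beside 4.16% of all genes in A, 34.5% in Q and 24.2% in R.

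The last list held 4 genes of vacuolar proteases and isp3, with 3 called higher in Q, 1 higher in R and 0 in A. Of all genes tested 18.6% were higher and 15.8% lower in Q, 13.2% and 11.1% in R, and 2.73% and 1.43% in A. Isp3, a spore coat protein gene, was at 42.3 ± 16.5 CPM in Q, against 15 ± 1.9 CPM in WT, and rose by a log2 fold change of 1.49 ± 0.32 (adjusted p = 0.00647). The protease gene psp3 rose in Q (log2 0.63, adjusted p = 0.0107). Carboxypeptidase Y is encoded by cpy1, which rose in Q (log2 0.60, adjusted p = 0.014) and in R (log2 0.67, adjusted p = 0.0134). Those calls were lost without Q replicate 2 or WT replicate 1 in Q and without WT replicate 1 or 3 in R. By annotation 3 of the names in these lists belong to genes of other roles, since hip1 codes for a histone chaperone subunit, gap1 for a GTPase-activating protein and asp1 for an inositol phosphate kinase. Without hip1 and gap1 the transporter list held 16 genes, with 1 higher and 5 lower in Q and 1 higher and 2 lower in R. Without asp1 the metabolism list held 13, with 0 higher and 1 lower in A, 0 higher and 5 lower in Q, and 1 higher and 4 lower in R.

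**Figure D5:**
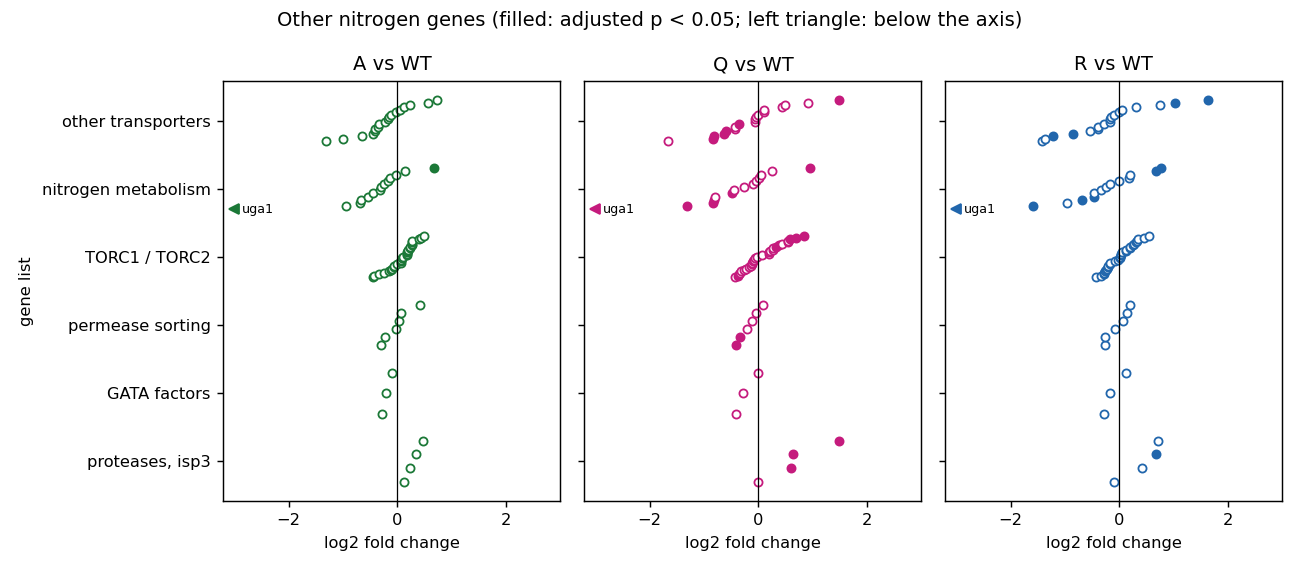
Log2 fold change against WT of each tested gene of the 6 lists, with 1 panel per mutant, genes ordered by fold change within each list and filled points where the adjusted p was below 0.05. The triangle marks uga1, which lies below the axis because it had 0 counts in the mutants, and the protease list lies to the right of 0 in Q for the 3 called genes.

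By position, 5 of the 9 genes are on chromosome I, 3 on II and 1 on III. Over all genes tested, edgeR called 4.16% in A, 34.5% in Q (18.6% higher, 15.8% lower) and 24.2% in R (11.1% lower). Of the 17 nearest listed neighbours tested it called 0 in A, 2 higher and 1 lower in Q, and 2 lower in R. The 2 higher in Q were dad5 beside gaf1 (log2 0.67, adjusted p = 0.0313) and atd2 beside cat1 (log2 0.61, adjusted p = 0.0201), while gaf1 and cat1 fell there. Both calls were lost without WT replicate 1, 2 or 3, that of dad5 also without Q replicate 2 or 3 and that of atd2 without Q replicate 1. The neighbours of isp5, SPAC1039.08 and mmf2, were not called in Q (log2 0.49 and 0.28, adjusted p of 0.318 and 0.403). The permease gene put4 lies next to cat1 on the opposite strand, at 198 ± 45.4 CPM in Q and 217 ± 41.5 CPM in R, against 137 ± 55 CPM in WT, and was not called in either (adjusted p of 0.236 and 0.0995). Beside aat1, the gene alr2 fell in R (log2 -1.25 ± 0.37, adjusted p = 0.0316; not called without R replicate 1 or 3 or any 1 WT library). Beside isp7, SPAC25B8.12c fell in Q (log2 -1.61 ± 0.28, adjusted p = 0.00413) and SPAC25B8.15c fell in R (log2 -1.20 ± 0.26, adjusted p = 0.011; not called without WT replicate 1), where isp7 rose. The stress transcription factor gene atf1, next to isp4, was not called in any mutant.

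The genes most alike in level over the 12 libraries were taken by the Pearson correlation of log2 CPM, here TMM-adjusted and with a small prior count added. They describe these libraries, which fall into 4 groups, and carry no p. For isp5 these were SPAC24B11.08c (r = 0.954) and rho5 (r = 0.952), for cat1 rrb1 and sua5 (r = 0.977 each), for fnx1 ura5 (r = 0.963) and SPAC29E6.06c (r = 0.959), and for gaf1 SPBC30B4.09 (r = 0.961) and SPAC6B12.07c (r = 0.957). For aat1 they were etd1 (r = 0.945) and ptr2 (r = 0.937), of which ptr2 is described above. For isp7 the gene most alike was amt1 (r = 0.898), an ammonium transporter gene that rose in R (log2 0.77 ± 0.23, adjusted p = 0.0349; not called without R replicate 2 or 3 or any 1 WT library), followed by nde2 (r = 0.864). For per1 they were ulp1 (r = 0.909) and SPBC530.15c (r = 0.898), for isp6 SPACUNK4.10 (r = 0.92) and sof1 (r = 0.887), and for isp4 php2 (r = 0.85) and tup11 (r = 0.848). Overlaps with a listed gene on the opposite strand exist for rho5, sua5, SPBC30B4.09, ptr2, ulp1, SPACUNK4.10, sof1 and php2.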

How the data were processed

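Per the labels' protocols, Trizol was used to extract total RNA, oligo(dT) to select mRNA, and the amplified cDNA was sequenced. Per the submitters' processing notes, the tools were StringTie, RSEM, HISAT2, Bowtie2, fastp and DESeq2, with no version or role for any. Not given in the sources used here: the genome build, the annotation and the strand setting. The deposited values are, per the file headers, counts and FPKM for each gene and library. The authors' deposited log2 ratios are, from the values, ratios of mean FPKM, and the authors' FDR is an adjusted p-value from a test of their own.

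The tests ran on the counts in edgeR 4.0.16 under R 4.3.3 (TMM, filterByExpr, which kept 5024 genes and left out 136, group as the only term, Benjamini-Hochberg over all genes tested, two-sided). SEs were taken from the F statistic and are approximate. Printed CPM values are not TMM-adjusted, so folds of means differ slightly from fitted folds. The log2 CPM values used for correlations are TMM-adjusted. Intervals of 2 SE include the spread between libraries, and the floor of 3 counts covers counting error only.

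Alternatives were DESeq2 1.42.0, RLE size factors, no filter on low counts, only the groups compared, each library left out, replicate 2 of the mutants left out together, a replicate block, and limma 3.58.1 on log2(FPKM + 1) or log2(FPKM + 0.1). Same-numbered libraries deviated together in Q and R (correlations of 0.32, 0.4 and 0.29) and in R and A (0.18, 0.32 and 0.19). In A and WT the correlations were 0.12, 0.28 and 0.05. Signs were mixed in Q and A (-0.18, 0.2 and 0.13), in Q and WT (-0.08, 0.08 and -0.03) and in R and WT (-0.06, 0.18 and -0.07). Only the replicate block, fitted over all 12 libraries, treats them as paired, a pairing that comes from the data and not from the labels. The main fit treats no libraries as paired.

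The reference (ASM294v3) gave names, gene order and, with BLAST 2.17.0, copies at 95% identity over 50% of a gene; 5109 of 5160 identifiers matched. The 9 genes and the lists were chosen with earlier results of these data known. Named genes were the 9, up to 4 called per list and comparison (up to 2 of lowest p where none was called), the 2 most alike genes per member and the nearest neighbours, of which some are left unnamed. The gene bit61 was named beyond this rule.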

Additional observations from a re-analysis of the deposited data

How the results depend on the processing

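Of 1080 values of the 9 genes under the alternatives, 973 kept their direction and side of the threshold, 53 passed it newly, 35 no longer passed it and 19 turned sign, all 19 among values that were not called. The count called in Q stayed within 1.5 times under every alternative, and that in R under every one but single left-out libraries. Leaving out 1 library at a time gave 0 to 1 genes in A, 4 to 7 in Q and 1 to 4 in R, 0 to 2 for Q against R, 0 to 2 for Q against A and 0 to 3 for R against A. DESeq2 called 1 in A, 2 for Q against R (6.71% of all genes), 1 for Q against A and 3 for R against A. Fitting only the groups compared called 1 in A (18.7%), 0 for Q against R (0.841%) and 2 for R against A (1.92%). RLE size factors called 1 for R against A (2.59% of all genes), and limma on FPKM 1 with either pseudocount (2.19% with 1 and 2.21% with 0.1). Both limma fits called 5 in R against WT, with cat1 as lower among them, beside 25.1% and 24.9% of all genes. Without replicate 2 of the mutants, 1 was called in A and 3 in each comparison of mutants, beside 17.6% of all genes for Q against R, 9.02% for Q against A and 9.24% for R against A. With the replicate block, 1 was called in A (9.24% of all genes), 2 for Q against R, 2 for Q against A (1.91%) and 3 for R against A, and cat1 joined the calls in R (log2 -0.51, adjusted p = 0.0155). The cause was not tested.

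The turned signs were these, as log2 values. For fnx1 for Q against R single left-out libraries gave -0.325 to 0.0202, and limma 0.0001 and 0.000176. For fnx1 for R against A they gave -0.141 to 0.195, the replicate block -0.0124, and limma -0.0746 and -0.0771. For gaf1 in A they gave -0.236 to 0.0712, and leaving out replicate 2 of the mutants 0.0627. For isp4 for R against A they gave -0.383 to 0.094, and the same removal 0.029. For per1 they gave -0.284 to 0.466 for Q against R, -0.0673 to 0.683 in Q and -0.0041 to 0.388 in R, and the same removal -0.085, -0.0888 and -0.00378.

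With 3 libraries a group, differences near the approximate SE of 0.16 to 0.68 on the log2 scale could not be separated from the spread. Differences of several SE could also go uncalled by edgeR. Examples are isp5 between Q and A (log2 3.19 ± 0.66, adjusted p = 0.159) and fnx1 in A (log2 -0.61 ± 0.17, adjusted p = 0.0621). In the limma fits on FPKM, all genes had a median of -0.10 in R and 0.13 for Q against R, against which log2 values there are to be read.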
